A study of Homo sapiens with 8 samples.

Results

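The 10 hypoxia-inducible signalling and secreted genes described here were ANGPTL4, VEGFA, ADM, STC1 and STC2, whose products are secreted, NDRG1, BHLHE40 and EGLN3, which act in signalling and its feedback, and PDK1 and SLC2A1, which act in glucose use. They were taken by symbol from the 27204 genes and loci of the series, and 8 of the 10 were expressed highly enough to be tested. H1703, an established line labelled as human lung squamous cell carcinoma, was compared in 4 groups of 2 libraries each. Detached (floating) cells with a knockdown of SPIB, detached control cells with a knockdown of luciferase, attached cells with the SPIB knockdown and attached control cells with the luciferase knockdown made up the groups, so that every group carried a knockdown. SPIB is a transcription factor of the ETS family, and anoikis, which the study is about, is the death of cells that lose their contact with the matrix. The labels call the repeats biological but do not say what separated them. The p-values below thus set group differences against the spread between these repeats, whatever that spread reflects. A note of 12 h of floating stands on all samples, attached ones included, and was read as the time of the detached groups only.

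Cells sense oxygen through prolyl hydroxylases of the EGLN family, which mark the alpha subunits of hypoxia-inducible factor (HIF) for destruction through VHL when oxygen is plentiful. When oxygen is short, HIF alpha pairs with ARNT and binds the core letters ACGTG or GCGTG near its target genes, which supply blood vessel growth, glucose uptake and a diversion of pyruvate from mitochondria. Many of the same genes also answer other signals, among them nutrient supply, stress kinases and nuclear receptors, so that their transcripts alone are not a measure of oxygen.

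The promoters of ANGPTL4 and BHLHE40, the only members that passed the test in a pairwise knockdown comparison, and of SLC2A1, a glucose transporter that passed in no comparison, are shown for the letters that HIF reads. Each runs from 250 bases before to 50 bases after the annotated start on the gene's own strand (RefSeq, GRCh38.p14), and capitals mark ACGTG or GCGTG on either strand. The windows are chr19:8363905-8364204 on the plus strand, chr3:4979187-4979486 on the plus strand and chr1:42958819-42959118 on the minus strand.
ANGPTL4: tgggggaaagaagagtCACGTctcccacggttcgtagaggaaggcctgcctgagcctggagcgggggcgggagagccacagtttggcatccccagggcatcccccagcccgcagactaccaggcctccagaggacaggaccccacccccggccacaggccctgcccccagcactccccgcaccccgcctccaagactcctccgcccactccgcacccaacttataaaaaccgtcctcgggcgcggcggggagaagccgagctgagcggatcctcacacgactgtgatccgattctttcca
BHLHE40: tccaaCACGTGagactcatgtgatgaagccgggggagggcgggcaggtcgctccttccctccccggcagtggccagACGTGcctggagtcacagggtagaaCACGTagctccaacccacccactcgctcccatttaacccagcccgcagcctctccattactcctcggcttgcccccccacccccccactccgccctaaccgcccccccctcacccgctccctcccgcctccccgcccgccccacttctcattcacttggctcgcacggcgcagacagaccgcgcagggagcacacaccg
SLC2A1: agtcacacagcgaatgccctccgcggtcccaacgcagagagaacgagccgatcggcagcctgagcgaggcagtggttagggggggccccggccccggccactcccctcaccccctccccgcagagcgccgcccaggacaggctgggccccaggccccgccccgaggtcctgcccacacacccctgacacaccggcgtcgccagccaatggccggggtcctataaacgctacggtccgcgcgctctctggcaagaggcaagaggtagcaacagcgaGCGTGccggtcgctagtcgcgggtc
BHLHE40 had 4 matches, of which 2 overlap in the palindrome CACGTG, the E-box letters, while ANGPTL4 and SLC2A1 had 1 each. RefSeq promoters were searched for 7 members with 8 entries, and 6 of the 8 entries held the core, against 48.4% of all 35116 promoters. The promoters of NDRG1 and STC1 were left out of the search by rule, and VEGFA had no entry. CACGTG stood in 1 of the 8, against 7.26% of all promoters. GAGGAA is the purine-rich run of letters known to be bound by SPIB and its relatives. It was found on either strand in 4 of the 8 entries, against 27.9% of all promoters. The entries with GAGGAA were those of ANGPTL4, ADM and STC2 and an entry of PDK1, while that of BHLHE40 held no match. All matches given here are of letters in a short window and are not sites of binding.

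Values are FPKM, fragments per kilobase of transcript scaled to the mapped fragments of a library, so absolute read depth is unknown. From the spacing of low values, depth differed by up to 1.60 times between libraries, and 13022 to 13283 loci per library reached 1 FPKM. The knockdown itself could not be checked, since SPIB shares a merged locus with POLD1 at chr19:50887346-50934570 (hg19), which was at 41.8 and 44.3 FPKM in detached knockdown cells, 44.9 and 49.8 in detached control cells, 47.5 and 52.5 in attached knockdown cells and 55.9 and 51.2 in attached control cells. In 4 libraries, 1 of each group, the mitochondrial locus is listed at 0, against 47540 to 47980 FPKM in the others. Of 8 squamous markers, 5 have a row of their own and SOX2 alone of these reached 1 FPKM, with a summed level of 1.14 to 3.05. These 5 markers of the labelled squamous type were thus low or near 0 in all libraries. The keratins KRT5, KRT6A and KRT14 lie only in merged loci, whose values were not examined. Summed markers with a row of their own stayed at or under 0.744 FPKM for adenocarcinoma (3 of 5 markers) and 0.660 for leukocytes (5 of 6). They stayed at or under 0.103 for endothelium (1 of 4, VWF) and at 1.58 to 3.99 for fibroblasts (4 of 5). The sum of 5 general epithelial markers, mostly KRT18, was 68.7 and 69.5 FPKM in detached knockdown cells, 61.3 and 63.5 in detached control cells, 109 and 113 in attached knockdown cells and 94.2 and 104 in attached control cells, with EPCAM and CDH1 near 0. It moved with detachment, and its part in the results below was not tested.

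The members covered a wide span of expression per length of transcript. By the median over the 8 libraries, ANGPTL4 stood highest at 99.7 FPKM, followed by BHLHE40 at 45.1, VEGFA at 43.1, NDRG1 at 18.1, SLC2A1 at 7.94, PDK1 at 4.43, STC1 at 1.51 and ADM at 1.37. EGLN3 at 0.0418 and STC2 at 0.0110 FPKM lay far below the filter of 1 FPKM in 2 libraries. The ranges of BHLHE40 and VEGFA overlapped, as did those of STC1 and ADM and those of EGLN3 and STC2, while every other pair of neighbours in this order was apart in all libraries. The highest library exceeded the lowest by 10.7 times for STC1, 4.51 times for ADM and 1.87 times for ANGPTL4, against 1.32 times for SLC2A1.

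**Figure D1:**
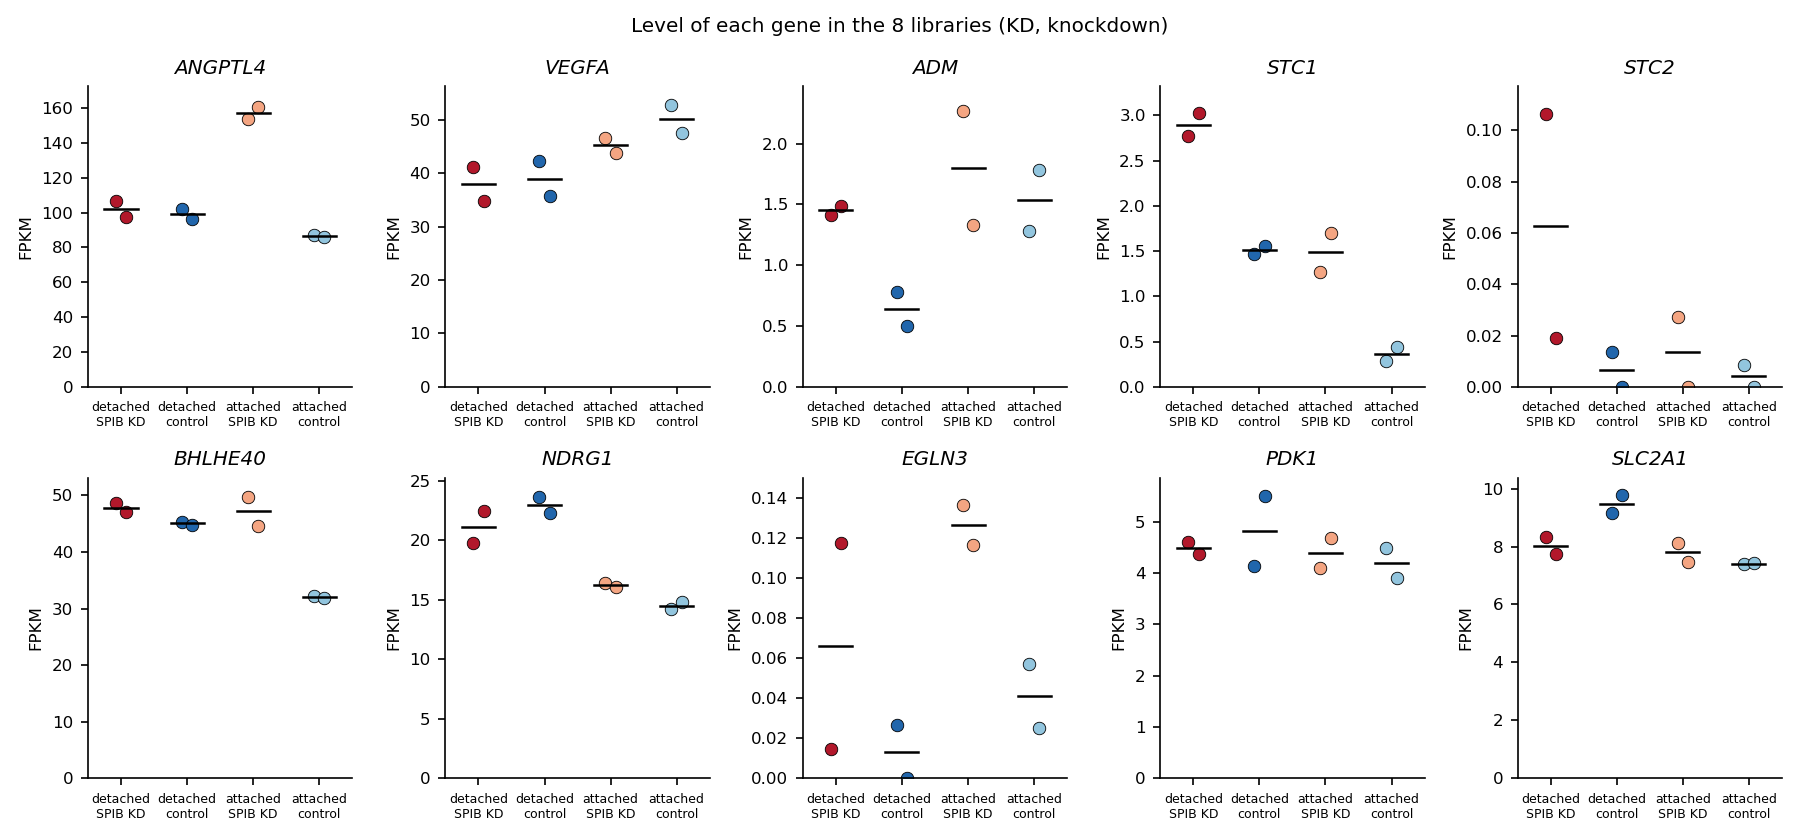
FPKM of each of the 10 genes (vertical axes, each starting at 0) in detached SPIB-knockdown, detached control, attached SPIB-knockdown and attached control cells; points are the 2 libraries of a group and lines their mean. ANGPTL4 is highest in attached knockdown cells, BHLHE40 lowest in attached control cells, and NDRG1 higher in all 4 detached than in all 4 attached libraries.

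Among the secreted members, ANGPTL4, a circulating inhibitor of lipoprotein lipase (chr19:8427750-8439257, hg19), had its peak in attached knockdown cells. Its level was 107 and 97.4 FPKM in detached knockdown cells, 102 and 96.1 in detached control cells, 154 and 161 in attached knockdown cells and 87.4 and 85.9 in attached control cells. The attached knockdown libraries lay above all others and the attached control libraries below all others, while the detached groups overlapped. VEGFA, the main growth factor of blood vessels (chr6:43714069-43754224), had 41.3 and 34.8 FPKM in detached knockdown cells, 42.3 and 35.7 in detached control cells, 46.6 and 43.9 in attached knockdown cells and 52.8 and 47.5 in attached control cells. All 4 detached libraries were below all 4 attached ones, with a gap of less than the spread within some groups.

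STC1, a stanniocalcin with local roles in calcium and phosphate handling, was low but had the widest relative span. It was at 2.77 and 3.03 FPKM in detached knockdown cells, 1.47 and 1.55 in detached control cells, 1.27 and 1.70 in attached knockdown cells and 0.283 and 0.439 in attached control cells. Attached control cells were lowest and detached knockdown cells highest, with the other groups overlapping between them. Its relative STC2 (chr5:172741716-172756506) was at 0.106 and 0.0189 FPKM in detached knockdown cells and at or under 0.0273 in the other libraries, 3 of which list it at 0. ADM, the vasodilator peptide adrenomedullin (chr11:10317967-10328944), was at 1.41 and 1.49 FPKM in detached knockdown cells, 0.780 and 0.503 in detached control cells, 2.27 and 1.33 in attached knockdown cells and 1.28 and 1.79 in attached control cells. The detached control libraries were the lowest, and the attached groups overlapped widely.

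Among the signalling members, NDRG1, an intracellular protein known as a stress-responsive suppressor of metastasis, was at 19.7 and 22.5 FPKM in detached knockdown cells, 23.6 and 22.3 in detached control cells, 16.4 and 16.1 in attached knockdown cells and 14.2 and 14.8 in attached control cells. Every detached library was above every attached one. BHLHE40, a transcriptional repressor also known as DEC1 (chr3:5017741-5079287), was at 48.6 and 47.1 FPKM in detached knockdown cells, 45.3 and 44.8 in detached control cells, 49.7 and 44.6 in attached knockdown cells and 32.1 and 31.8 in attached control cells. Attached control cells were apart from the other groups, which spanned 44.6 to 49.7 FPKM. The BHLHE40 value sums 2 loci, the smaller of which added 0.501 to 1.51 FPKM, and reads of its antisense gene BHLHE40-AS1 cannot be told apart, strandedness being not given in the sources used here. EGLN3, the prolyl hydroxylase that HIF induces in feedback (chr14:34393437-34931980), was at 0.0144 and 0.118 FPKM in detached knockdown cells, 0.0264 and 0 in detached control cells, 0.136 and 0.117 in attached knockdown cells and 0.0572 and 0.0251 in attached control cells. These levels are too low to be compared.

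The metabolic members were the flattest. SLC2A1, the glucose transporter GLUT1 (chr1:43391052-43424530), was at 8.32 and 7.75 FPKM in detached knockdown cells, 9.17 and 9.77 in detached control cells, 8.13 and 7.48 in attached knockdown cells and 7.38 and 7.44 in attached control cells. Its detached control libraries were above the 6 others. PDK1, a kinase that inactivates pyruvate dehydrogenase (chr2:173419963-173489823), was at 4.61 and 4.37 FPKM in detached knockdown cells, 4.14 and 5.51 in detached control cells, 4.11 and 4.68 in attached knockdown cells and 4.49 and 3.91 in attached control cells. No group of it stood apart.

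To ask what loss of attachment did in control cells, detached control cells were compared with attached control cells. NDRG1, BHLHE40 and STC1 rose, and none of the 8 tested members was called lower. NDRG1 averaged 23.0 ± 0.944 FPKM in detached and 14.5 ± 0.409 in attached control cells (SD, n = 2 each), a log2 fold change of 0.63 ± 0.08 (SE, limma, adjusted p = 0.0134). BHLHE40 averaged 45.1 ± 0.404 in detached and 32.0 ± 0.208 FPKM in attached control cells, a log2 fold change of 0.48 ± 0.06 (limma, adjusted p = 0.0140). STC1 averaged 1.51 ± 0.0609 in detached and 0.361 ± 0.111 FPKM in attached control cells, and its log2 fold change of 0.88 ± 0.17 (limma, adjusted p = 0.0392) is of FPKM + 1 and understates a change at so low a level. All log2 fold changes here are of FPKM + 1, with Benjamini-Hochberg adjustment over all 13438 genes and loci tested and a threshold of 0.05. The 3 of 8 members called stand beside 3.15% of all tested genes, or 0.893% counted as higher, and the 7 of 8 members whose groups did not overlap beside 51.9%. The members' median log2 fold change was 0.25, against -0.0067 over all tested genes. Other members did not pass: SLC2A1 at 0.31 (limma, adjusted p = 0.110), ANGPTL4 at 0.19 (adjusted p = 0.125), VEGFA at -0.36 (adjusted p = 0.125), ADM at -0.62 (adjusted p = 0.163) and PDK1 at 0.16 (adjusted p = 0.604). In a bulk sample, fewer cells of a kind and less RNA per cell cannot be told apart. The calls rested on few libraries: leaving out any of the 4 libraries compared gave an adjusted p of 0.0776 to 0.0851 for NDRG1 and 0.0797 to 0.102 for BHLHE40, and leaving out any of the 8 gave 0.0517 to 0.189 for STC1. The call of STC1 was also lost without a filter on low values (adjusted p = 0.0902) and in a fit of these 4 libraries alone (adjusted p = 0.109).

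The same step was then examined in SPIB-knockdown cells. ANGPTL4 fell and NDRG1 rose, while BHLHE40 and STC1 did not pass. ANGPTL4 averaged 102 ± 6.76 FPKM in detached and 157 ± 4.90 in attached knockdown cells (SD, n = 2 each), a log2 fold change of -0.62 ± 0.06 (limma, adjusted p = 0.00222). This call held in all 8 fits that left out a library, at an adjusted p of 0.00606 to 0.0223. NDRG1 averaged 21.1 ± 1.93 in detached and 16.3 ± 0.233 FPKM in attached knockdown cells, a log2 fold change of 0.35 ± 0.08 (limma, adjusted p = 0.0435). That call was lost when any library was left out, at an adjusted p of 0.0629 to 0.196, and under 5 of the 10 other settings tried, which ranged from 0.0320 to 0.119. STC1 was at 2.90 ± 0.185 in detached and 1.49 ± 0.302 FPKM in attached knockdown cells and just missed the threshold (log2 fold change 0.65 ± 0.17, adjusted p = 0.0587). BHLHE40 at 0.022, SLC2A1 at 0.037 and PDK1 at 0.027 had log2 fold changes near 0, and VEGFA was at -0.25 (limma, adjusted p = 0.213) and ADM at -0.17. The 2 of 8 members called stand beside 7.11% of all tested genes, and the 4 of 8 whose groups did not overlap beside 54%. The median log2 fold change of the members was 0.025, against -0.018 over all tested genes.

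To ask what SPIB knockdown did in attached cells, attached knockdown cells were compared with attached control cells, the libraries that also entered the comparisons above. ANGPTL4 and BHLHE40 rose. ANGPTL4 averaged 157 ± 4.90 FPKM in knockdown and 86.6 ± 1.08 in control cells (SD, n = 2 each), a log2 fold change of 0.85 ± 0.06 or 1.81-fold (limma, adjusted p = 0.00213), and its unadjusted p ranked 6 among all 13438. The call held without each library in turn, at an adjusted p of 0.00370 to 0.0312. BHLHE40 averaged 47.1 ± 3.64 in knockdown and 32.0 ± 0.208 FPKM in control cells, a log2 fold change of 0.54 ± 0.06 or 1.46-fold (limma, adjusted p = 0.00907). That call was lost without attached control replicate 1 (adjusted p = 0.0755) or 2 (adjusted p = 0.0774), and the alternatives ranged from 0.00607 to 0.0890. STC1, at 1.49 ± 0.302 in knockdown and 0.361 ± 0.111 FPKM in control cells, just missed (log2 fold change 0.87 ± 0.17, limma, adjusted p = 0.0523). The 2 of 8 members called stand beside 1.85% of all tested genes, or 0.64% counted as higher, and the 6 of 8 whose groups did not overlap beside 46.8%. NDRG1 at 0.15, VEGFA at -0.14, ADM at 0.13, SLC2A1 at 0.065 and PDK1 at 0.054 had an adjusted p of 0.387 or more.

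In detached cells, knockdown against control left no member past the test, while 3 of the 8 tested had an unadjusted p under 0.05 in limma. These were STC1 at a log2 fold change of 0.63 ± 0.17 (limma, adjusted p = 0.180), ADM at 0.58 ± 0.22 (adjusted p = 0.345) and SLC2A1 at -0.21 ± 0.09 (adjusted p = 0.416). The difference of ANGPTL4 was 0.042, with a 95% interval of -0.094 to 0.18. BHLHE40 was at 0.084 (interval -0.063 to 0.23), NDRG1 at -0.12, VEGFA at -0.035 and PDK1 at -0.075. The count of 0 stands beside 0.737% of all tested genes called, and the 4 of 8 whose groups did not overlap beside 44%. The 3 of 8 at an unadjusted p under 0.05 in limma stand beside 1596 of all 13438.

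**Figure D2:**
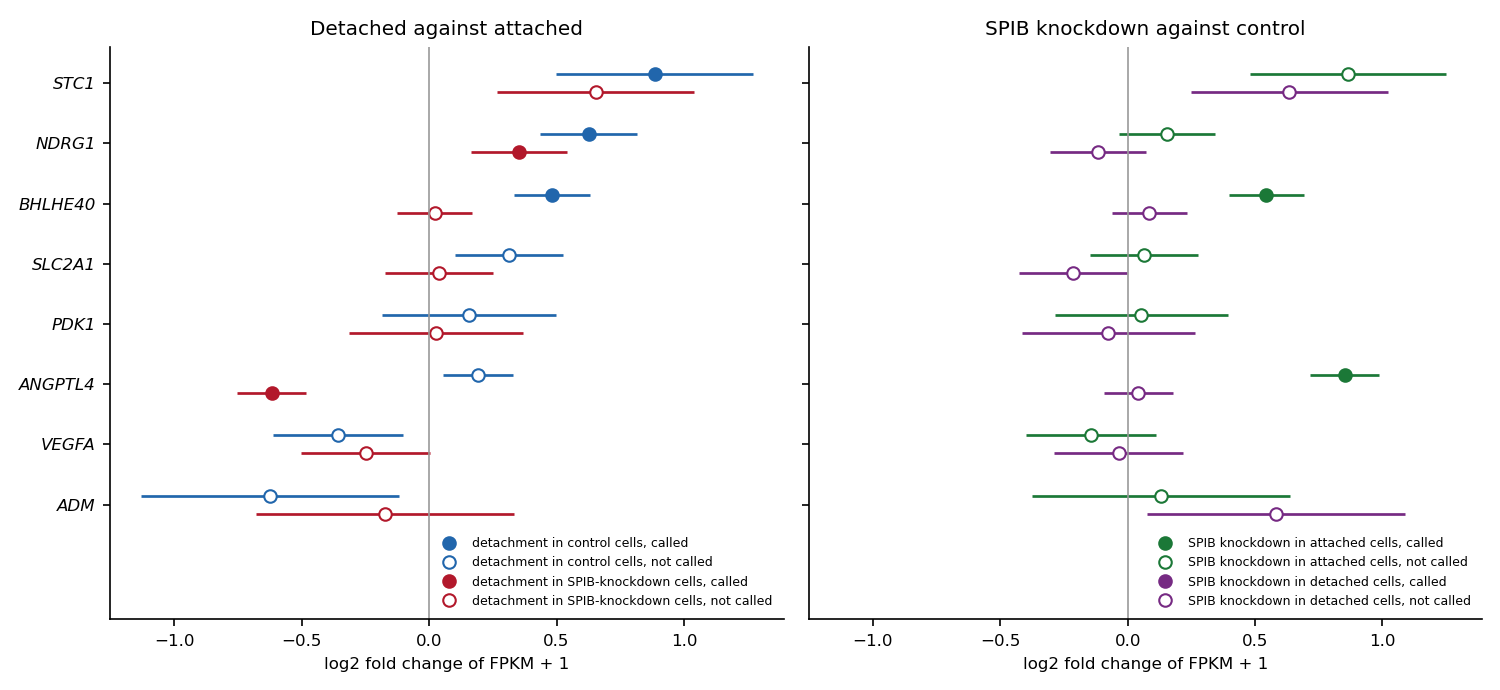
Log2 fold change of FPKM + 1 (horizontal axes) of the 8 tested genes for detached against attached cells (left) and SPIB knockdown against control (right); points are limma estimates, bars 95% intervals, and filled points passed an adjusted p of 0.05. ANGPTL4 differs by 0.85 with knockdown in attached cells and 0.042 in detached cells, and STC1 is above 0 in all 4 comparisons.

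Whether the knockdown effect itself differed between the states was tested as an interaction, the effect in detached minus that in attached cells. No gene passed: 0% of the 13438 were called by limma, with 898 at an unadjusted p under 0.05, of which 3 were members. ANGPTL4 had the smallest unadjusted p of all genes tested, with an interaction of -0.81 ± 0.08 on the log2 scale (limma, adjusted p = 0.214). BHLHE40 followed among the members at -0.46 ± 0.09 (limma, adjusted p = 0.488), and NDRG1 at -0.27 ± 0.11 (limma, adjusted p = 0.738). The same numbers read the other way are the detachment effect in knockdown cells minus that in control cells.

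Detachment averaged over control and knockdown cells, and knockdown averaged over attached and detached cells, were added after the data had been seen. Each average gave a member 4 libraries a side. Detached cells had higher NDRG1 (log2 fold change 0.49 ± 0.06, limma, adjusted p = 0.00280), STC1 (0.77 ± 0.12, adjusted p = 0.00635) and BHLHE40 (0.25 ± 0.04, adjusted p = 0.0112), and lower ANGPTL4 (-0.21 ± 0.04, adjusted p = 0.0150) and VEGFA (-0.30 ± 0.08, adjusted p = 0.0382). These 5 of 8 stand beside 15.6% of all tested genes, and the 2 of 8 with no overlap of the 4 detached and 4 attached libraries, NDRG1 and VEGFA, beside 18.4%. The detachment averages of ANGPTL4 and BHLHE40 stand for unlike values in knockdown and control cells. ANGPTL4 went in opposite directions, at -0.62 in knockdown cells and 0.19 in control cells, the latter not called. BHLHE40 was at 0.022 in knockdown cells, not called, and 0.48 in control cells. The call of VEGFA was lost in 6 of the 8 fits that left out a library (adjusted p of 0.0625 to 0.106 in those 6) and that of ANGPTL4 without attached knockdown replicate 2 (adjusted p = 0.0503) or detached control replicate 2 (adjusted p = 0.0538), while NDRG1, STC1 and BHLHE40 were called in all 8. That of ANGPTL4 was lost with quantile normalization too (-0.13, adjusted p = 0.0782). Averaged knockdown also joined unlike values, 0.85 in attached and 0.042 in detached cells for ANGPTL4, and 0.54 and 0.084 for BHLHE40. Neither was called in detached cells. The 4 knockdown libraries were apart from the 4 control libraries for 0 of 8 members, and that share over all tested genes was not computed. Averaged knockdown called ANGPTL4 (0.45 ± 0.04, limma, adjusted p = 0.00195), BHLHE40 (0.31 ± 0.04, adjusted p = 0.0110) and STC1 (0.75 ± 0.12, adjusted p = 0.0158), all higher, against 4.24% of all tested genes, or 1.4% counted as higher. That of BHLHE40 was lost without detached control replicate 2 (adjusted p = 0.0518), and that of STC1 without 6 of the 8 libraries, at an adjusted p of 0.0514 to 0.0662.

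The members did not share 1 profile over the 8 libraries. As a description, the root mean square distance between log2 profiles centred on their own means was smallest for PDK1 and SLC2A1 (0.120), then NDRG1 and SLC2A1 (0.183), BHLHE40 and SLC2A1 (0.205) and NDRG1 and BHLHE40 (0.207). This distance is not scaled to the size of a profile. Flat genes such as PDK1 and SLC2A1 can therefore lie near another gene without sharing its pattern. The profiles themselves had a root mean square size of 0.259 for NDRG1, 0.235 for BHLHE40, 0.323 for ANGPTL4 and 0.546 for STC1. Each member called in a pairwise comparison was also set beside 1041 other genes called in at least 1 of them. The nearest to NDRG1 were CACNA1A, a calcium channel subunit (distance 0.052), FBXO27, an F-box protein (0.078), and CHMP1B, a component of the membrane-remodelling ESCRT machinery (0.092). BHLHE40 had ANTXR2, an anthrax toxin receptor that binds matrix (0.068), SPRY4, a feedback inhibitor of receptor kinase signalling (0.069), and NT5E, an ectoenzyme that makes adenosine (0.072). ANGPTL4 had the metallothionein MT1X (0.092), the AP-1 subunit JUN (0.103) and the ETS factor ELK3 (0.116), and STC1 had the stress cytokine GDF15 (0.203), RGS14 (0.222) and SOCS1, an inhibitor of cytokine signalling (0.235). All of these points share the same 8 libraries.

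**Figure D3:**
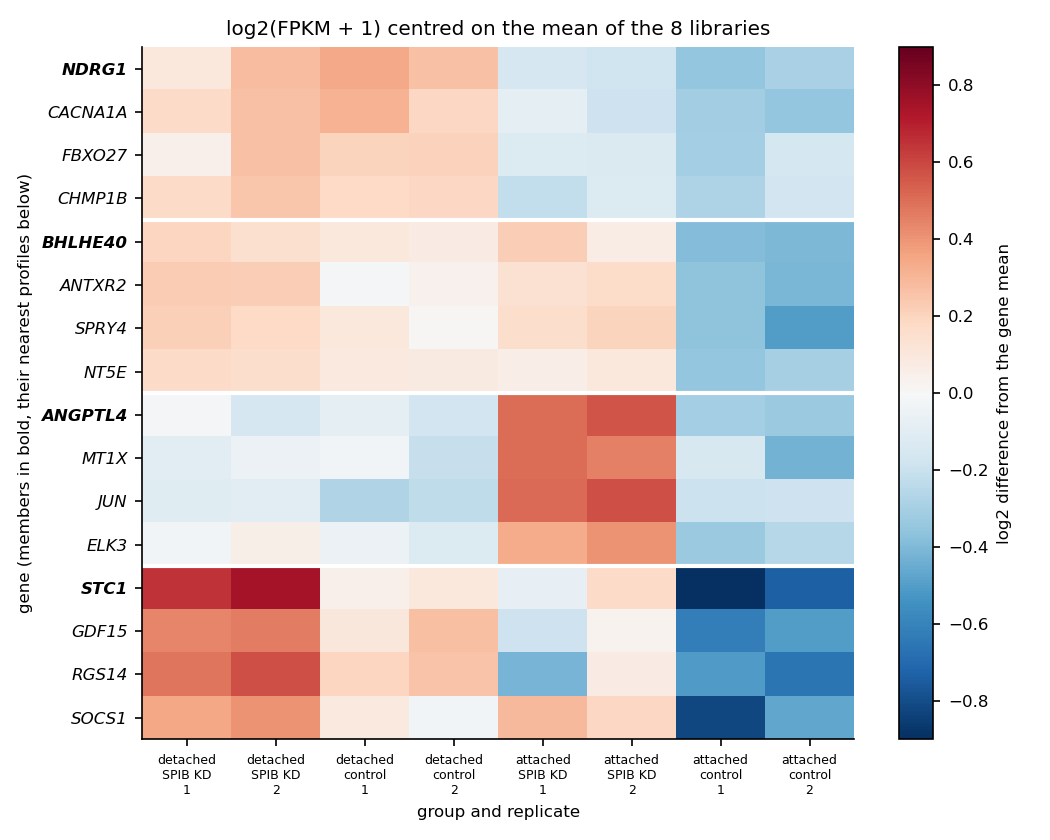
Log2(FPKM + 1) of the 4 members called in a pairwise comparison and their 3 nearest genes each (rows), centred on each gene's mean, in the 8 libraries (columns); red is above and blue below that mean. ANGPTL4 and its neighbours are highest in both attached knockdown libraries, and BHLHE40 and its neighbours lowest in both attached control libraries. Neighbours were picked for closeness to the member in these same libraries, so that their patterns are alike follows from the choice.

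Of the transcripts of the oxygen sensing machinery, CITED2 was lower both with detachment and with SPIB knockdown. VHL, the ubiquitin ligase subunit, lay at 48.6 to 59.7 FPKM, the hydroxylases EGLN1 at 17.0 to 25.2 and HIF1AN at 20.5 to 27.3, and EPAS1, which encodes HIF-2 alpha, at 3.98 to 6.88. HIF1A, ARNT and EGLN2 lie only in merged loci, and the locus of HIF1A with SNAPC1 was at 42.7 and 40.3 FPKM in detached knockdown cells, 44.4 and 40.4 in detached control cells, 53.5 and 46.6 in attached knockdown cells and 48.6 and 44.4 in attached control cells. That of ARNT with CTSK lay at 61.5 to 76.7 and that of EGLN2 at 54.6 to 63.0 FPKM. Of 16 genes listed, 10 were tested, and CITED2, which competes with HIF for the coactivator p300, was the only one called in a pairwise comparison. This 1 of 10 stands beside 3.15% of all tested genes for detachment in control cells, 7.11% for detachment in knockdown cells and 1.85% for knockdown in attached cells. In these, 6, 4 and 2 of the 10 had an unadjusted p under 0.05 in limma, against 2761, 3272 and 2295 of all 13438. CITED2 was at 260 and 264 FPKM in detached knockdown cells, 289 and 301 in detached control cells, 301 and 297 in attached knockdown cells and 348 and 346 in attached control cells. It fell with detachment in control cells (log2 fold change -0.23, limma, adjusted p = 0.0186) and in knockdown cells (-0.19, adjusted p = 0.0219), and with knockdown in attached cells (-0.21, adjusted p = 0.0328). Leaving out a library gave an adjusted p of up to 0.120 for the first, 0.0975 for the second and 0.167 for the third of these, losing the first in 4 of 8 fits, the second in 4 and the third in all 8. With quantile normalization the value in knockdown cells was -0.069 (limma, adjusted p = 0.306), and each of the 3 calls was lost under 3 or more of the 10 other settings. In the averaged comparisons, CITED2 was lower with detachment (-0.21, limma, adjusted p = 0.00265) and with knockdown (-0.19, adjusted p = 0.00742). VHL was the other call of averaged detachment, at 0.16 (limma, adjusted p = 0.0229), kept in 2 of the 8 fits that left out a library. These 2 of 10 stand beside 15.6% of all tested genes.

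Among 35 other hypoxia-inducible genes, 25 were tested, and 5 of these were called in a pairwise comparison. With detachment in control cells, 1 rose, beside 3.15% of all tested genes called, with 21 of the 25 above 0 and a median log2 fold change of 0.15, against -0.0067 over all tested genes. DDIT4, an inhibitor of the growth kinase mTORC1, was at 108 and 108 FPKM in detached and 84.9 and 74.8 in attached control cells, a log2 fold change of 0.43 ± 0.07 (limma, adjusted p = 0.0242). In knockdown cells 3 rose and 1 fell with detachment, beside 7.11% of all tested genes called, with 18 of the 25 above 0 and a median of 0.24, against -0.018 over all. P4HA2 and P4HA1, prolyl hydroxylases of collagen, rose by log2 fold changes of 0.58 (limma, adjusted p = 0.0122) and 0.44 (adjusted p = 0.0235). P4HA1 was at 17.6 and 19.6 FPKM in detached and 13.3 and 13.5 in attached knockdown cells, and P4HA2 at 30.2 and 26.1 in detached and 19.2 and 17.7 in attached knockdown cells.

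DDIT4 rose in knockdown cells too (0.36, limma, adjusted p = 0.0250), and the transferrin receptor TFRC fell (-0.48, adjusted p = 0.0125). Each of these calls was lost in some of the fits that left out a library, where the largest adjusted p was 0.132 for DDIT4 in control cells, 0.117 for DDIT4, 0.127 for P4HA1, 0.0717 for P4HA2 and 0.0846 for TFRC in knockdown cells. With knockdown in attached cells, HMOX1, which breaks down heme, rose (258 and 262 FPKM in knockdown and 209 and 218 in control cells; log2 fold change 0.28 ± 0.05, limma, adjusted p = 0.0406), a call kept in 2 of the 8 fits that left out a library, with an adjusted p of up to 0.188. HMOX1 was the 1 of 25 called there, beside 1.85% of all tested genes. None of the 25 passed with knockdown in detached cells, beside 0.737% of all tested genes called. There 3 had an unadjusted p under 0.05 in limma, against 1596 of all 13438. Of the list, 5 genes lie only in merged loci. The locus of LOXL2 with ENTPD4 was lower with knockdown in detached cells (log2 fold change -0.38, limma, adjusted p = 0.0375). It was also lower with averaged knockdown (-0.22, limma, adjusted p = 0.0271). How these calls depend on the settings was not examined. Averaged detachment called 8 of the 25, beside 15.6% of all tested genes. Of these, 6 were higher, the 3 that rose in knockdown cells and CCNG2, a cyclin (log2 fold change 0.81, limma, adjusted p = 0.0155), PLOD1, a lysyl hydroxylase of collagen (0.27, adjusted p = 0.0131), and WSB1, a subunit of a ubiquitin ligase (0.25, adjusted p = 0.0108). TFRC and JMJD6, an oxygen-dependent hydroxylase (-0.25, limma, adjusted p = 0.00999), were lower. Averaged knockdown called HMOX1 higher (0.19, limma, adjusted p = 0.0297) and PLOD1 lower (-0.23, adjusted p = 0.0477), beside 4.24% of all tested genes. The call of PLOD1 was lost when any library was left out, and that of HMOX1 in most of these fits. Of the 9 other settings run, 7 kept the call of HMOX1 and 4 that of PLOD1. The pH and matrix genes CA9, CA12 and LOX, which are among the strongest hypoxia targets in many tumour cells, were at or under 0.122, 0.276 and 0.557 FPKM in all libraries and were not tested.

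**Figure D4:**
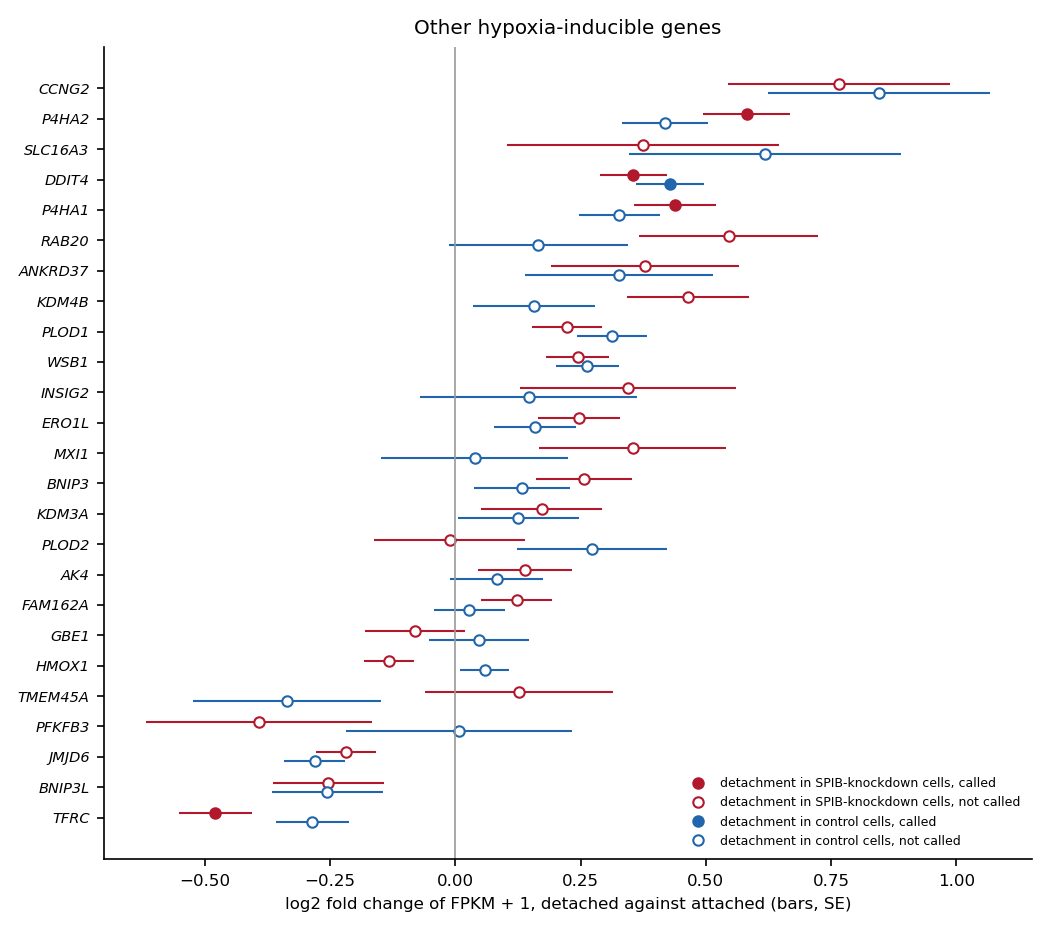
Log2 fold change of FPKM + 1 for detached against attached cells (horizontal axis) of the 25 tested genes of the other hypoxia-inducible list (rows), in SPIB-knockdown cells (red) and control cells (blue); bars are SE and filled points passed an adjusted p of 0.05. Most points lie above 0, 18 of 25 in knockdown and 21 of 25 in control cells, and TFRC is the only gene called below 0, in knockdown cells.

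Of the genes that work with or resemble the members, HK2, PFKM and NDRG2 were called in a pairwise comparison. Of 11 tested glycolytic enzymes, several of which HIF also induces, none was called by limma with detachment in control cells. None was called with knockdown in detached cells either, and each of these comparisons had 2 at an unadjusted p under 0.05 in limma. In these 2 comparisons 3.15% and 0.737% of all tested genes were called, and 2761 and 1596 of the 13438 had an unadjusted p under 0.05 in limma. With detachment in knockdown cells, hexokinase HK2 fell (-0.45, limma, adjusted p = 0.0473) and phosphofructokinase PFKM rose (0.35, adjusted p = 0.0361), and PFKM fell with knockdown in attached cells (-0.44, adjusted p = 0.0345), where 6 of the 11 had an unadjusted p under 0.05. The 6 of 11 stand beside 2295 of all 13438 at an unadjusted p under 0.05 in limma. The 2 of 11 called for detachment in knockdown cells stand beside 7.11% of all tested genes, and the 1 of 11 for knockdown in attached cells beside 1.85%. All 3 of these calls were lost when any library was left out, at an adjusted p of 0.0703 to 0.210 for HK2, and of 0.0506 to 0.168 and 0.0570 to 0.182 for PFKM. On average, HK2 was lower with detachment (-0.33, limma, adjusted p = 0.0251) and the pyruvate kinase gene PKM lower with knockdown (-0.092, adjusted p = 0.0400), kept in 1 and 0 of the 8 fits that left out a library. HK2 was the 1 of 11 called with averaged detachment, beside 15.6% of all tested genes. PKM was the 1 of 11 with averaged knockdown, beside 4.24%. The merged locus of GPI with PDCD2L and RP11-618P17.4 was lower with averaged knockdown too (-0.12, limma, adjusted p = 0.0406). The dependence of this call on the settings was not examined. None of 8 tested subunits and phosphatases of the pyruvate dehydrogenase complex, the target of PDK1, was called in any pairwise comparison by limma, beside 0.737% to 7.11% of all tested genes. In each, 1 or 2 had an unadjusted p under 0.05 in limma, against 1596 to 3272 of all 13438. Of 10 receptors and partners of the secreted members, 1 was tested, the VEGF co-receptor NRP1 at 0.868 to 2.22 FPKM, and it was not called by limma, with an unadjusted p under 0.05 in 1 pairwise comparison.

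Of 9 tested paralogs of the members, 1 was called in a pairwise comparison, detachment in knockdown cells, beside 7.11% of all tested genes. NDRG2, a relative of NDRG1, was at 4.01 and 6.17 FPKM in detached and 2.08 and 1.56 in attached knockdown cells (log2 fold change 1.10 ± 0.19, limma, adjusted p = 0.0196), with an adjusted p of up to 0.0954 when a library was left out and 5 of 8 fits keeping the call. Averaged detachment called 3 of the 9, all higher, beside 15.6% of all tested genes. These were NDRG2 (0.99, limma, adjusted p = 0.00452), NDRG4 (0.66, adjusted p = 0.0210) and PDK3, a relative of PDK1 (0.52, adjusted p = 0.0392), and leaving out a library kept the call in 8, 2 and 1 of the 8 fits. The glucose transporter genes SLC2A3 and SLC2A14 share a merged locus, named here after its values were seen. It was at 103 and 103 FPKM in detached knockdown cells, 104 and 96.0 in detached control cells, 65.5 and 74.4 in attached knockdown cells and 54.5 and 63.4 in attached control cells, all far above SLC2A1. The locus rose with detachment in control cells (0.75 ± 0.09, limma, adjusted p = 0.00912) and in knockdown cells (0.55 ± 0.09, adjusted p = 0.0154), and the calls held in 6 and 5 of the 8 fits that left out a library, with an adjusted p of up to 0.0621 and 0.0887.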

How the data were processed

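RNA was sequenced from 8 libraries of H1703 cells in 4 groups, grouped by the labels. The authors deposited 1 table of FPKM for each. HISAT and Cuffnorm are named, with build hg19, per the submitters' processing notes, versions and annotation being not given in the sources used here. Deposited tables list 28590 loci. Loci of 1 symbol were summed, leaving 27204, and 1961 loci merge several symbols, whose values cannot be split. FPKM sums per library were 707883 to 786285.

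Values were taken as log2(FPKM + 1), and genes with at least 1 FPKM in at least 2 libraries were tested, 13438 in all. One limma model (limma 3.58.1, R 4.3.3, lmFit, then contrasts.fit and trended eBayes, 4 residual and 3.42 prior degrees of freedom) was fitted to all 8 libraries with a mean per group. Tests were two-sided with Benjamini-Hochberg adjustment over all tested genes and called under 0.05. The script was tested on simulated data. Alternatives changed the pseudocount, filter, scaling, trend, replicate block and libraries. All members were named, genes of the pathway lists where called, marker lists as sums, plus 7 genes of oxygen sensing as levels and the 3 nearest profiles of each called member. CA9, CA12, LOX, NRP1 and the loci of SLC2A3, LOXL2 and GPI were named after their values were seen. One gene was left out of the lists and is not reported here. Members and lists were chosen with earlier results of these data known. Labels do not tie replicate numbers to a batch.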

Additional observations from a re-analysis of the deposited data

Results flagged for a closer look

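ANGPTL4 stood out because both detached control libraries were above both attached control libraries, while both detached knockdown libraries were below both attached knockdown libraries. Its knockdown effect in detached minus attached cells was -0.81 ± 0.08 on the log2 scale (limma, adjusted p = 0.214), so the difference was tested and not called. SLC2A1 stood out because its knockdown libraries were all below control in detached cells and all above control in attached cells. The difference between these effects was -0.28 ± 0.13 (limma, adjusted p = 0.762) and was not called.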

How the results depend on the processing

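Both pairwise calls of ANGPTL4 held under all 10 other settings and all 8 fits that left out a library, and the averaged calls of NDRG1, BHLHE40 and STC1 with detachment and of ANGPTL4 with knockdown under all that were run. The remaining member calls were each lost in at least 1 of these. Without the intensity trend the adjusted p in limma was 0.0523 for BHLHE40 with detachment in control cells, 0.0746 for NDRG1 in knockdown cells, 0.0503 for BHLHE40 with knockdown in attached cells, and 0.0521 for ANGPTL4 and 0.0765 for VEGFA with averaged detachment. VEGFA was also lost without a filter, with quantile normalization and with rescaling, at up to 0.102. Fitting the 4 libraries of a comparison alone left 0 members called for detachment in control cells, 1 for detachment in knockdown cells and 1 for knockdown in attached cells, and called 56, 188 and 28 genes in all, with 6 for knockdown in detached cells. Without a filter on low values, 1 member was called for detachment in knockdown cells, and 190, 476, 110 and 61 genes for detachment in control cells, detachment in knockdown cells, knockdown in attached cells and knockdown in detached cells, with 1274 and 333 for averaged detachment and knockdown. STC2 and EGLN3, tested only there, had an adjusted p of 0.419 or more. Without the intensity trend these 6 counts were 120, 348, 66, 26, 1491 and 262, and averaged detachment called 3 members, as it did with quantile normalization. STC1 passed with knockdown in attached cells at a pseudocount of 0.1 (log2 fold change 1.79, limma, adjusted p = 0.0345; all alternatives 0.0345 to 0.191). The 1 reversal was PDK1 with detachment in knockdown cells, -0.023 with quantile normalization. The cause of these changes was not tested.

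The higher and lower calls of detachment in control cells, 120 and 303, became 159 and 182 with quantile normalization and 168 and 195 when small RNA, rRNA and mitochondrial genes were kept out of the scaling, and in knockdown cells 276 and 680 became 334 and 350 and 399 and 402. No scaling moved the median of all genes by over 0.1.

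Same-numbered libraries deviated with correlations across genes of 0.174 to 0.267 among attached control, detached control and detached knockdown cells. Those of attached knockdown cells with each of these groups were -0.185 to -0.139. The numbers as given thus do not show a pairing of all 4 groups, though the signs follow a pattern. Exchanging the numbers of attached knockdown cells would make all of them positive, and what they reflect was not tested. The replicate block left 1 member called for detachment in knockdown cells (NDRG1 lost, adjusted p = 0.0585) and added VEGFA for detachment in control cells (adjusted p = 0.0425), with 334, 903, 198 and 70 genes called in the 4 pairwise comparisons. With the numbers of attached knockdown cells exchanged, which also puts the 4 libraries that list the mitochondrial locus at 0 on 1 side, 251, 769, 135 and 65 genes and 1 member for detachment in knockdown cells were called, and STC1 was lost for detachment in control cells (adjusted p = 0.0638).

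Leaving out 1 library gave 0 to 2 members called for detachment in control cells, 1 to 1 in knockdown cells, 1 to 2 for knockdown in attached cells, 3 to 5 for averaged detachment and 1 to 3 for averaged knockdown. Over all genes it called 56 to 270, 150 to 723, 38 to 143 and 10 to 69 in the pairwise comparisons, 0 to 3 for the interaction, and 1109 to 1439 and 226 to 334 for the averages. Uncalled members near 0 changed sign: PDK1 ranged from -0.014 to 0.33 for detachment in control cells, -0.049 to 0.10 in knockdown cells, -0.026 to 0.13 for knockdown in attached cells, -0.25 to 0.095 in detached cells, -0.30 to 0.041 for the interaction and -0.096 to 0.074 for averaged knockdown. For detachment in knockdown cells, BHLHE40 ranged from -0.055 to 0.099, ADM from -0.42 to 0.072 and SLC2A1 from -0.016 to 0.090. For knockdown, ADM ranged from -0.11 to 0.37 in attached cells, ANGPTL4 from -0.025 to 0.11 and VEGFA from -0.15 to 0.084 in detached cells, and NDRG1 from -0.026 to 0.063 on average, and the interaction of VEGFA from -0.011 to 0.23. With 2 libraries a group and no read totals, small differences of low genes were not resolved.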
